A study of Mus musculus with 16 samples.

Results

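The genes described here are 10 genes of the osteoclast, the multinucleated cell that resorbs bone and arises from monocyte precursors. They were chosen by gene symbol, and all 10 were found among the 50508 genes of the count table. RNA-seq was run on monocytes grown from the bone marrow of 4 wild-type mice, animals WT1 to WT4, all given macrophage colony-stimulating factor (M-CSF). The cells of each animal were split over PFM037+TNF, TNF, PFM037 and vehicle for 24 h, which gave 4 groups of 4 libraries with every animal in each. TNF is tumour necrosis factor, an inflammatory cytokine, and PFM037 is a compound known here by its code name alone. The labels state neither its target and dose nor the dose of TNF, the age and sex of the mice or the time in culture before treatment. The labels list M-CSF, TNF and PFM037 as the agents and name no RANK ligand. Vehicle cells also carried M-CSF, so every comparison was made on top of it.

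Osteoclast formation starts from a monocyte that carries RANK, the receptor encoded by Tnfrsf11a. M-CSF keeps the precursor alive and raises RANK, and RANK ligand then acts through NF-kB, AP-1 and calcium signalling to induce NFATc1, the master transcription factor of the lineage. NFATc1 in turn raises fusion proteins, adhesion receptors and the enzymes and proton pump that dissolve bone. TNF shares part of this NF-kB signalling and is known to add to the action of RANK ligand. The comparisons below asked whether cells given TNF, PFM037 or both held more or less RNA of these genes after 24 h.

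The 10 genes did not move together under any treatment. With the animal in the model, 3 of 9 tested genes lay above vehicle and 6 below it with PFM037+TNF. With TNF 5 lay above and 4 below, and with PFM037 4 lay above and 5 below. The ranges of the groups overlapped for all 10 genes in each of 5 comparisons between groups, in which 1.17% to 10.1% of all genes tested had ranges that did not overlap. When the animals were treated as separate cultures without pairing, 0 of the 9 genes that could be tested passed the threshold in any comparison. When each animal was compared with itself, 6 results on 5 genes passed: 2 of 9 genes with TNF, where 19.4% of all genes passed, 1 of 9 with PFM037+TNF against TNF, where 1.36% did, and 3 of 9 with PFM037+TNF against vehicle, where 24.8% did. With TNF the RANK receptor gene Tnfrsf11a fell and the fusion gene Dcstamp rose. The protease gene Ctsk fell with PFM037+TNF, both against TNF and against vehicle, and Ocstamp and Atp6v0d2 fell with PFM037+TNF against vehicle. In bulk RNA, fewer cells of a type and less RNA per cell cannot be told apart.

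**Figure D1:**
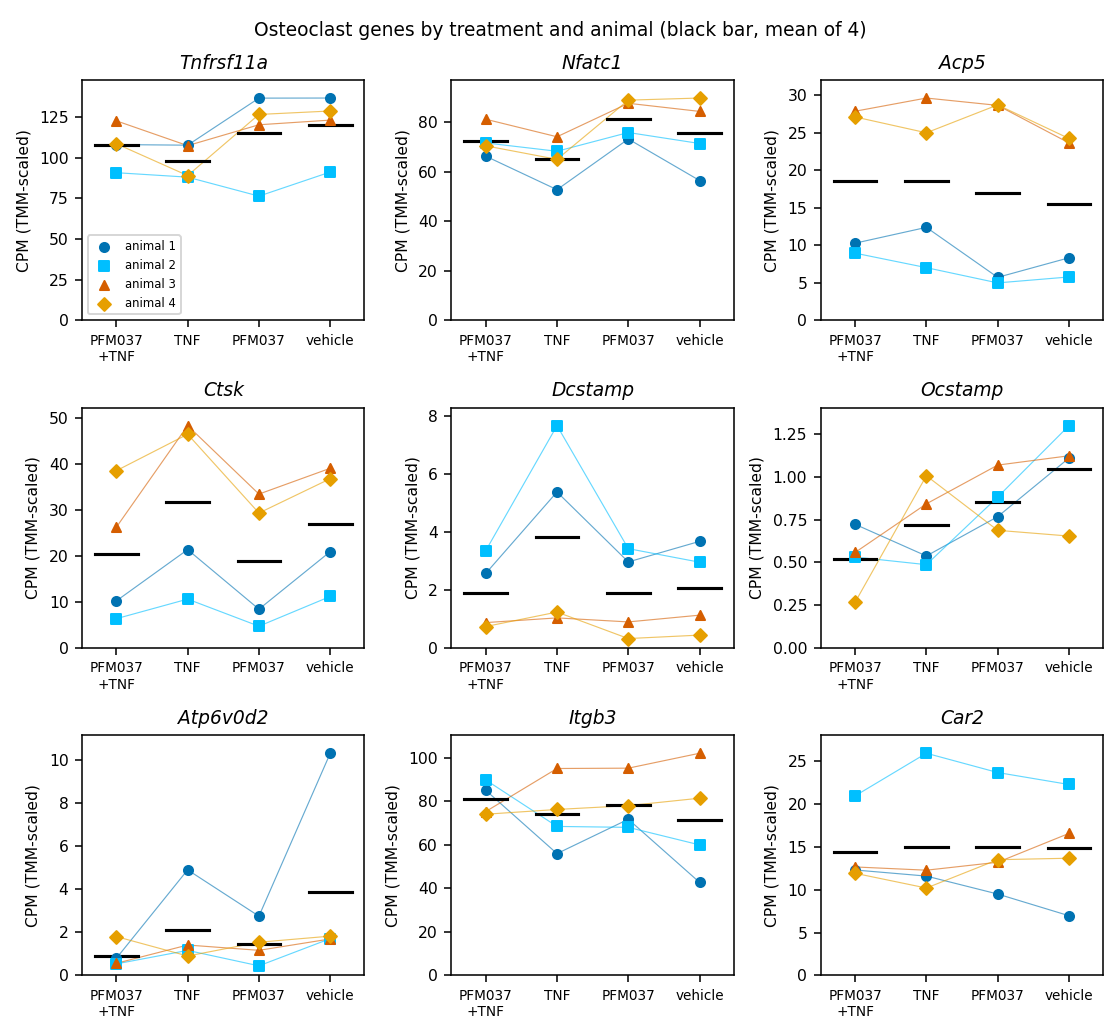
Level of each of the 9 tested genes (y axis, CPM after TMM scaling, from 0) in the groups PFM037+TNF, TNF, PFM037 and vehicle (x axis); each symbol is 1 animal, thin lines join libraries of an animal, and black bars are means of 4. Acp5 and Ctsk split by animal in every group, with animals 3 and 4 high, while Dcstamp splits the other way.

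Total counts per library ran from 9403232 to 21017905, both extremes being in the TNF group. CPM stands for read counts put on 1 library total with TMM factors, and adjusted p-values come from edgeR's quasi-likelihood test with Benjamini-Hochberg adjustment over 13856 genes. Monocyte identity was checked on Csf1r, the receptor for M-CSF, which was at 1015 to 2864 CPM in the 16 libraries, and on Itgam, the integrin subunit CD11b, at 1680 to 2637 CPM. Of the stromal and osteoblast markers, the collagen genes Col1a1 and Col1a2 had 2 to 55 and 1 to 47 counts in a library, while Col3a1, another collagen gene, and Bglap, osteocalcin, had at most 1. Runx2 made up most of the summed level of that list, which was at most 40.8 CPM. The 8 neutrophil markers together reached 6298 to 16503 CPM, and granulocyte RNA was thus present in every library. Animals stood apart from each other: for Acp5, Ctsk, Dcstamp and Car2 the animal accounted for 82.2% to 92.1% of the sum of squares of log2 CPM over the 16 libraries. Over genes at large the animals fell into 2 pairs. Chi-square per degree of freedom, which rises as 2 libraries of a group differ more, was 6.78 to 8.89 between animals 3 and 4. It was 15.7 to 47.8 between animals 1 and 2. Between animals of different pairs it was 43.8 to 108, and in each group above the values within pairs. What set the pairs apart was not tested. The values of each animal are therefore given beside the calls. The model without the animal ignores the pairing and sets treatment differences against a spread that includes the one between these 4 animals. The model with the animal sets them against how far the treatment differences vary among these 4 animals.

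Counted per kilobase of exon, which allows genes to be set side by side, the receptor and the protease led. Averaged over 16 libraries, Tnfrsf11a stood at 18.4 ± 3.14 and Ctsk at 16.2 ± 9.81 CPM per kb (SD). The integrin gene Itgb3 stood at 12.9 ± 2.64, Nfatc1 at 9.86 ± 1.46, Acp5 at 8.56 ± 4.95 and Car2 at 6.12 ± 2.27 CPM per kb. Then came a gap in the means. Dcstamp stood at 0.906 ± 0.759, Atp6v0d2 at 0.769 ± 0.898, Ocstamp at 0.215 ± 0.0773 and Oscar at 0.0429 ± 0.0460 CPM per kb. Neighbours in this order overlapped in range in each case, those of Car2 and Dcstamp narrowly, with a lowest Car2 level of 2.87 and a highest Dcstamp level of 2.88 CPM per kb. Depth ran from 795 to 2830 counts in a library for Tnfrsf11a to 4 to 26 for Ocstamp among the genes tested.

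Oscar, an immunoglobulin-like receptor that costimulates osteoclast precursors, was close to undetected. Its counts in animals 1 to 4 were 0, 2, 1 and 1 with PFM037+TNF, 0, 0, 1 and 2 with TNF, 1, 2, 1 and 1 with PFM037, and 0, 2, 6 and 0 with vehicle. It had 20 counts over all 16 libraries, was at 0 in 5 of them and did not pass the expression filter. No difference in Oscar was detectable at this depth.

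Tnfrsf11a, on chromosome 1 at 105780718 to 105847981 (GRCm38, plus strand), encodes RANK, the receptor that lets a monocyte answer RANK ligand. In animals 1 to 4 its levels were 108, 90.8, 123 and 109 CPM with PFM037+TNF and 108, 88.0, 107 and 89.0 CPM with TNF. They were 137, 76.4, 120.3 and 127 CPM with PFM037 and 137, 91.2, 123 and 129 CPM with vehicle. Animal 2 was the lowest animal in every group, and the TNF library lay below the vehicle library of the same animal in 4 of 4 animals. Without the animal term TNF gave a log2 fold change of -0.29 (SE 0.17, adjusted p = 0.513). With it Tnfrsf11a fell to 0.826 of vehicle (log2 -0.28, SE 0.09, adjusted p = 0.0435). The call did not hold without animal 1, 3 or 4 (adjusted p = 0.0629 to 0.285). PFM037+TNF against vehicle gave -0.15 (SE 0.09, adjusted p = 0.253), lower in 4 of 4 animals though by only -0.006 in animal 2 and -0.005 in animal 3.

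The RANK receptor gene was thus the only tested member that passed as lower with TNF, and the fusion gene Dcstamp the only one that passed as higher. This count is near the background: 2 of 9 tested members were called with TNF when the animal was in the model, and 19.4% of all 13856 genes were. Without the animal term 0 of 9 members were called, against 2.68% of all genes, and 0 of 9 had an unadjusted p under 0.05, against 13.3% of all genes. DESeq2 and limma-voom without the animal term also called 0. The median log2 change of the 9 members was 0.03 with the animal term, beside -0.02 over all genes. The 10 direct TNF targets listed as a check, among them Sod2, Tnfaip3 and Nfkbia, all rose with the animal in the model.

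The 3 genes whose within-animal pattern was most like that of Tnfrsf11a were Foxp1, Slc35e2 and Ptrhd1. Likeness was the root mean square difference over the 12 within-animal log2 differences from vehicle, and it came to 0.103, 0.107 and 0.107. The median over 9638 candidate genes was 0.312.

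Nfatc1, the transcription factor that drives the osteoclast programme, lies on chromosome 18 at 80606205 to 80713071 (minus strand). It overlaps the antisense gene AC123818.1, and no source used here states the strand setting of the counting. Its levels in animals 1 to 4 were 66.3, 71.7, 81.3 and 70.5 CPM with PFM037+TNF and 52.8, 68.3, 74.2 and 65.1 CPM with TNF. They were 73.3, 75.9, 87.7 and 89.0 CPM with PFM037, and 56.5, 71.5, 84.5 and 89.9 CPM with vehicle. TNF lay below vehicle in 4 of 4 animals by a small margin, with a log2 fold change of -0.20 (SE 0.08, adjusted p = 0.0841 with the animal in the model, 0.573 without). PFM037+TNF lay below PFM037 in 4 of 4 animals (log2 -0.17, SE 0.08, adjusted p = 0.146) and above TNF in 4 of 4 (log2 0.16, SE 0.08, adjusted p = 0.352). None of these differences passed, though with library size in place of TMM and the animal in the model both TNF against vehicle (log2 -0.26, adjusted p = 0.0269) and PFM037+TNF against PFM037 (log2 -0.24, adjusted p = 0.0405) did. With TMM the 95% interval of the TNF difference ran from -0.37 to -0.04 on the log2 scale.

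The fusion genes are Dcstamp and Ocstamp, membrane proteins that mononuclear precursors need in order to join into osteoclasts. Dcstamp, on chromosome 15 at 39745930 to 39760938 (plus strand), was at 2.56, 3.35, 0.868 and 0.732 CPM in animals 1 to 4 with PFM037+TNF. It was at 5.38, 7.67, 1.03 and 1.23 CPM with TNF, 2.96, 3.42, 0.892 and 0.318 CPM with PFM037, and 3.67, 2.95, 1.12 and 0.436 CPM with vehicle. Animals 1 and 2 were above animals 3 and 4 in every group, and the libraries of animals 3 and 4 held only 6 to 22 counts. The TNF libraries of animals 1 and 2 were the highest of all 16.

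Dcstamp rose 1.79-fold with TNF against vehicle when the animal was in the model (log2 0.84, SE 0.23, adjusted p = 0.0170), being higher in 3 of 4 animals. Without the animal term the log2 change was 0.92 (SE 0.78, adjusted p = 0.699). The call did not hold without animal 1 (adjusted p = 0.0545) or animal 2 (log2 0.53, adjusted p = 0.259). Adding PFM037 to TNF brought Dcstamp to 1.88 ± 1.29 CPM, against 3.83 ± 3.25 CPM with TNF and 2.05 ± 1.52 CPM with vehicle (SD, n = 4 each). PFM037+TNF lay below TNF in 4 of 4 animals, and its log2 change of -0.95 missed the threshold (SE 0.24, adjusted p = 0.0569). DESeq2 and limma-voom with the animal called it (adjusted p = 0.0317 and 0.0260), as did edgeR without the expression filter (adjusted p = 0.00223). This comparison and that of TNF against vehicle share the TNF libraries. The effect of TNF in the presence of PFM037 was 0.05 on the log2 scale (SE 0.25), and the interaction of both agents was -0.78 (SE 0.34, unadjusted p = 0.0356, adjusted p = 1.00), so a difference between the TNF effects did not pass.

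The 3 genes most like Dcstamp by the same measure were B3gnt5, Zfp81 and Gm38077, at 0.375, 0.399 and 0.400. The median over 9639 candidates was 0.679, beside 6 to 22 counts of Dcstamp in the libraries of animals 3 and 4.

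Ocstamp, on chromosome 2 at 165393760 to 165400405 (minus strand), had 4 to 26 counts per library. Its levels in animals 1 to 4 were 0.723, 0.532, 0.558 and 0.266 CPM with PFM037+TNF, and 0.538, 0.487, 0.843 and 1.01 CPM with TNF. They were 0.768, 0.883, 1.07 and 0.688 CPM with PFM037 and 1.11, 1.30, 1.12 and 0.654 CPM with vehicle. The animal mattered less here than for the other tested members, accounting for 12.0% of the sum of squares and the treatment for 48.1%. Ocstamp fell to 0.494 of vehicle with PFM037+TNF (log2 -1.02, SE 0.32, adjusted p = 0.0285), lower in 4 of 4 animals. The call was made with the animal in the model, and without it the log2 change was -1.01 (SE 0.32, adjusted p = 0.117). Neither agent alone gave a call, the log2 changes being -0.65 (SE 0.32, adjusted p = 0.167) with TNF and -0.32 (SE 0.30, adjusted p = 0.846) with PFM037. Leaving out animal 2, 3 or 4 ended the call (adjusted p = 0.0643 to 0.133), as did DESeq2 with the animal (adjusted p = 0.0569). With TNF the estimates of the 2 fusion genes lay on opposite sides of vehicle, though that of Ocstamp did not pass. Each gene went the other way in 1 of 4 animals.

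**Figure D2:**
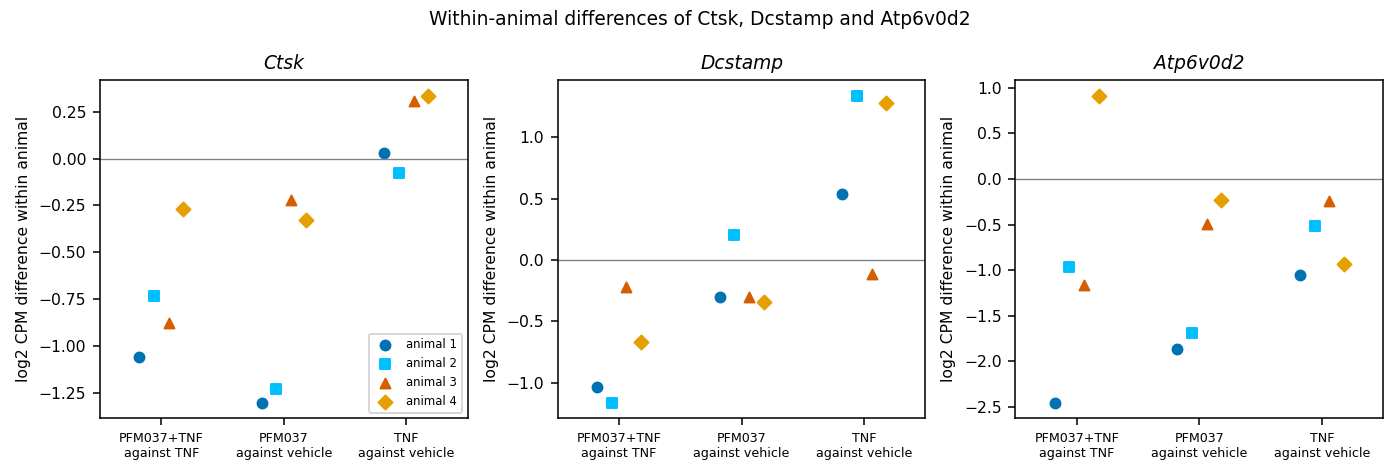
Difference in log2 CPM between 2 libraries of the same animal (y axis) for Ctsk, Dcstamp and Atp6v0d2, in the comparisons PFM037+TNF against TNF, PFM037 against vehicle and TNF against vehicle (x axis); each symbol is 1 animal and the grey line marks no difference. Ctsk lay below the line in 4 of 4 animals in both comparisons of PFM037, and Dcstamp lay above it with TNF in 3 of 4.

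Ctsk encodes cathepsin K, the acid protease with which osteoclasts degrade bone collagen, and Acp5 encodes tartrate-resistant acid phosphatase, the enzyme by which osteoclasts are stained. These 2 genes had the same division by animal, and their promoters, with that of Tnfrsf11a, the receptor gene that fell with TNF, are shown because the question was whether these stages moved together. The sequences are from RefSeq on GRCm38.p6, run from 250 bases before the RefSeq start to 50 bases after it, and are written on the gene's strand. The loci printed for these genes are from another source, GENCODE, and their starts differ from the RefSeq starts. They are at chr3:95498960-95499259 (plus strand) for Ctsk, chr9:22135697-22135996 (minus strand) for Acp5 and chr1:105780473-105780772 (plus strand) for Tnfrsf11a. Capitals mark matches on either strand. The letters sought were GGAAA (the core that NFAT factors bind), TGANTCA (AP-1), GAGGAA (PU.1) and CANGTG (a narrow form of the E-box). Other forms of the E-box were not marked. GGG and CC parted by any 5 bases (NF-kB) were also marked. The promoter table held 4 of the 10 members.
Ctsk: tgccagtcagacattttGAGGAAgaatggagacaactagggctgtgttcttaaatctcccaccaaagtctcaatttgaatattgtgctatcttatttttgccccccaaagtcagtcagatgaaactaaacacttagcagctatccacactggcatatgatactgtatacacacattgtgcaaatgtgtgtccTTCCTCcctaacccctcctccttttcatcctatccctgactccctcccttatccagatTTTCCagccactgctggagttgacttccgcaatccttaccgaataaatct
Acp5: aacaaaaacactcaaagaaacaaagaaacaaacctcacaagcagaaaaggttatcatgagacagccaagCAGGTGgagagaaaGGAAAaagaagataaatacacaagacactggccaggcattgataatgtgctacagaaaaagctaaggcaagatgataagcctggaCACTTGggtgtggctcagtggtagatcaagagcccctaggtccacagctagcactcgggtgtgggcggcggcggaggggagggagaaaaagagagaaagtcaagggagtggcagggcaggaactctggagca
Tnfrsf11a: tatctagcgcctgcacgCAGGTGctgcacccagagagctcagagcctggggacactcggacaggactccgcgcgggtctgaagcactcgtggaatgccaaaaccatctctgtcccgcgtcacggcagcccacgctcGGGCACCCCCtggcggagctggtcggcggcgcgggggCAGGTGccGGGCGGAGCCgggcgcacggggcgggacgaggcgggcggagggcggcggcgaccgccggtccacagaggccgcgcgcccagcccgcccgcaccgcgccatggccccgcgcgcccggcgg
The window of Ctsk held 1 match to the NFAT core and 2 to the PU.1 letters. That of Acp5 held 1 match to the NFAT core and 2 to the CANGTG letters. That of Tnfrsf11a held 2 matches to the CANGTG letters and 3 to the NF-kB letters, of which 2 are the same bases read on both strands. Such short words are common: of 32851 promoters of the same length, 61.3% held the NFAT core, 7.81% the AP-1 letters, 28.3% the PU.1 letters, 44.9% the CANGTG letters and 50.8% the NF-kB letters. The matches describe the letters of these windows and are not evidence of binding.

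Ctsk, on chromosome 3 at 95499256 to 95509362 (plus strand), was at 10.2, 6.33, 26.2 and 38.5 CPM in animals 1 to 4 with PFM037+TNF. It was at 21.4, 10.6, 48.3 and 46.5 CPM with TNF, 8.39, 4.69, 33.4 and 29.3 CPM with PFM037, and 20.9, 11.2, 39.1 and 36.8 CPM with vehicle. Animals 3 and 4 were above animals 1 and 2 in every group, and PFM037 libraries were below their partners without PFM037 in every animal, with and without TNF. Ctsk fell to 0.611 of the TNF level with PFM037+TNF (log2 -0.71, SE 0.17, adjusted p = 0.0469), the within-animal differences being -1.06, -0.73, -0.88 and -0.27. It was the only tested member called in that comparison, 1 of 9, where 1.36% of all genes were called. Trem2, a receptor that pairs with the adaptor DAP12 in osteoclast precursors, fell in the same comparison (log2 -0.47, SE 0.09, adjusted p = 0.0244).

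Without TNF the Ctsk difference was of like size. PFM037 against vehicle gave a log2 change of -0.71 (SE 0.17, 95% interval -1.06 to -0.36), with within-animal differences of -1.31, -1.23, -0.22 and -0.33. It did not pass after adjustment (unadjusted p = 0.000521, adjusted p = 0.136), in a comparison in which 0 of 9 members and 0.0794% of all genes were called. DESeq2 with the animal called it (adjusted p = 0.00387), as did edgeR with the animal and no expression filter (adjusted p = 2.36e-08). Limma-voom with the animal did not (adjusted p = 0.175), nor did edgeR with any 1 animal left out (adjusted p = 0.0824 to 0.793). The comparisons of PFM037 with and without TNF share no library, though they share the 4 animals, and their difference for Ctsk was -0.00 (SE 0.27, 95% interval -0.56 to 0.56). TNF itself changed Ctsk by 0.16 against vehicle (SE 0.16, adjusted p = 0.537).

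With both agents Ctsk fell to 0.680 of vehicle (log2 -0.56, SE 0.16, adjusted p = 0.0211), lower in 3 of 4 animals. All Ctsk calls needed the animal in the model. Without it the log2 change was -0.63 against TNF (SE 0.68, adjusted p = 1.00) and -0.41 against vehicle (SE 0.68, adjusted p = 0.8294). Leaving out any 1 of the 4 animals ended the call against TNF (adjusted p = 0.0854 to 0.171), and leaving out animal 1 or 2 ended that against vehicle (adjusted p = 0.0966 and 0.103), with the sign negative throughout. In PFM037+TNF against TNF, the neutrophil granule genes Ltf (log2 0.57, adjusted p = 0.0244) and Ly6g (log2 0.73, adjusted p = 0.0388) rose, with the summed neutrophil markers at 7592 to 16129 CPM, against 6298 to 10152 CPM with TNF. Their part in the result was not tested.

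Acp5, on chromosome 9 at 22126727 to 22135711 (minus strand), overlaps 6530413G14Rik on the opposite strand. It was at 10.3, 8.93, 27.8 and 27.1 CPM in animals 1 to 4 with PFM037+TNF, and 12.4, 7.00, 29.6 and 24.97 CPM with TNF. It was at 5.70, 4.97, 28.6 and 28.7 CPM with PFM037 and 8.31, 5.76, 23.6 and 24.2 CPM with vehicle. The gap between animals 1 and 2 and animals 3 and 4 exceeded any difference between treatments, the animal accounting for 92.1% of the sum of squares and the treatment for 3.31%. TNF gave a log2 change of 0.32 (SE 0.16, adjusted p = 0.178) and PFM037+TNF one of 0.32 against vehicle (SE 0.16, adjusted p = 0.152), both higher in 4 of 4 animals and neither past the threshold. PFM037 gave 0.02 against vehicle (95% interval -0.31 to 0.36) and PFM037+TNF 0.00 against TNF (95% interval -0.33 to 0.34). Acp5 therefore lacked the lower level with PFM037 that Ctsk had, although the difference between the 2 genes was not tested.

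**Figure D3:**
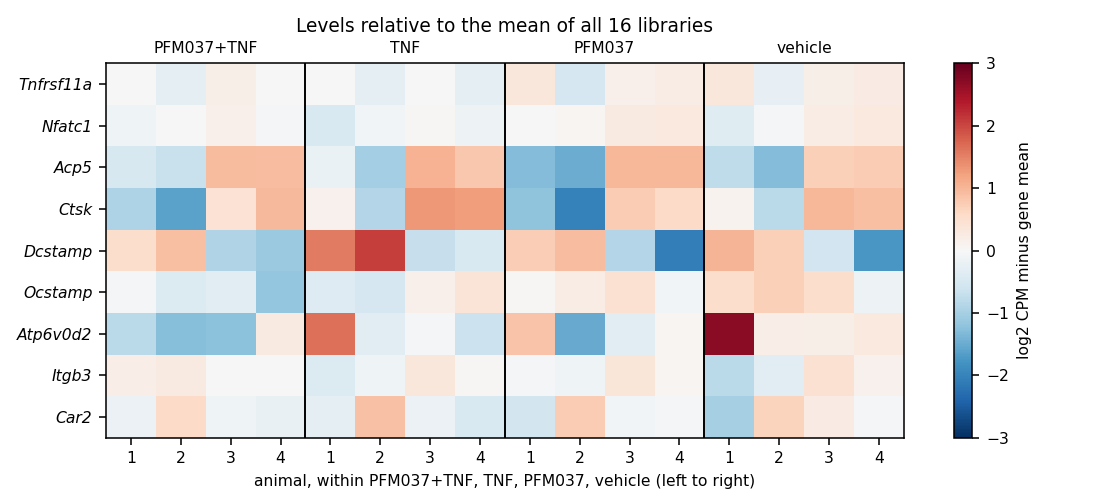
Level of the 9 tested genes (rows) in the 16 libraries (columns, animals 1 to 4 within PFM037+TNF, TNF, PFM037 and vehicle), as log2 CPM minus the gene's mean over all libraries; red is above and blue below that mean. Acp5 and Ctsk are above their means mainly in animals 3 and 4 and Dcstamp in animals 1 and 2, and the darkest red is Atp6v0d2 in vehicle animal 1.

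Atp6v0d2, on chromosome 4 at 19876841 to 19922605 (minus strand), encodes a subunit of the proton pump that acidifies the resorption pit and is also needed for fusion. Its levels in animals 1 to 4 were 0.789, 0.532, 0.558 and 1.80 CPM with PFM037+TNF, and 4.89, 1.16, 1.41 and 0.896 CPM with TNF. They were 2.74, 0.441, 1.16 and 1.53 CPM with PFM037 and 10.3, 1.70, 1.69 and 1.82 CPM with vehicle. Animal 1 was far above the others in the vehicle and TNF groups, with 213 and 100 counts, and other libraries held 8 to 50.

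Atp6v0d2 fell to 0.286 of vehicle with PFM037+TNF (log2 -1.80, SE 0.42, adjusted p = 0.00521 with the animal in the model), lower in 4 of 4 animals though by only -0.02 in animal 4. Without animal 1 the log2 change was -0.97 (SE 0.41, adjusted p = 0.103), and the call was lost. Without the animal term it was -2.10 (SE 0.75, adjusted p = 0.166). Each agent alone gave a negative value in 4 of 4 animals that did not pass, -0.74 for TNF (SE 0.38, adjusted p = 0.183) and -1.27 for PFM037 (SE 0.39, adjusted p = 0.293), though both passed without the expression filter (adjusted p = 0.00828 and 1.07e-05). Ctsk, Ocstamp and Atp6v0d2 made 3 of 9 tested members called in PFM037+TNF against vehicle, all lower, while 24.8% of all genes were called there and 12.0% were called as lower. Without the animal term 0 of 9 were called, against 2.63% of all genes, and 2 of 9, Ocstamp and Atp6v0d2, had an unadjusted p under 0.05, as had 16.2% of all genes. DESeq2 and limma-voom without the animal term called 0 of them.

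Car2, on chromosome 3 at 14886273 to 14900770 (plus strand), encodes carbonic anhydrase 2, the enzyme that supplies the protons for the pump. It was at 12.3, 20.9, 12.7 and 11.9 CPM in animals 1 to 4 with PFM037+TNF, and 11.6, 25.9, 12.3 and 10.2 CPM with TNF. It was at 9.49, 23.7, 13.2 and 13.5 CPM with PFM037 and 6.96, 22.3, 16.6 and 13.7 CPM with vehicle. Animal 2 was highest in every group, and the 4 group means lay between 14.5 and 15.0 CPM. Treatment accounted for 0.119% of the sum of squares. With the animal in the model TNF gave 0.03 against vehicle (95% interval -0.30 to 0.37) and PFM037 gave 0.02 (95% interval -0.31 to 0.35). Erythroid cells also make this enzyme, and the summed erythroid and megakaryocyte markers ran from 811 to 3096 CPM, with animal 2 highest in the TNF, PFM037 and vehicle groups. Their part in the Car2 level was not tested.

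Itgb3, on chromosome 11 at 104608000 to 104670476 (plus strand), encodes the integrin subunit beta 3, which with the alpha V subunit anchors osteoclasts to bone. Its levels in animals 1 to 4 were 85.1, 89.8, 75.3 and 74.1 CPM with PFM037+TNF, and 55.97, 68.5, 95.1 and 76.3 CPM with TNF. They were 71.8, 68.0, 95.2 and 78.0 CPM with PFM037 and 42.7, 60.0, 102 and 81.4 CPM with vehicle. Animals moved in opposite ways. PFM037+TNF was above vehicle by 0.99 and 0.58 on the log2 scale in animals 1 and 2, and below it in animals 3 and 4, with differences of -0.44 and -0.14. The log2 change over all animals was 0.25 (SE 0.15, adjusted p = 0.254), and no comparison of Itgb3 passed in this model. With the animal and no expression filter PFM037+TNF against vehicle passed (log2 0.24, SE 0.09, adjusted p = 0.0443), as it did without animal 3 (log2 0.45, SE 0.15, adjusted p = 0.0434).

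**Figure D4:**
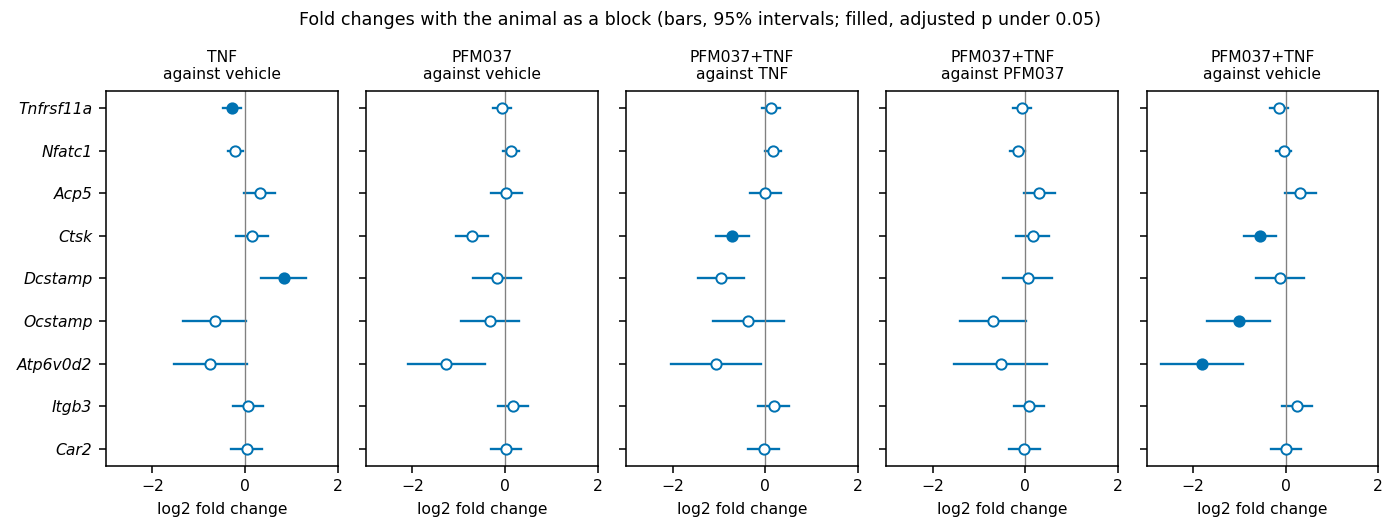
Log2 fold change of the 9 tested genes (x axis) in 5 comparisons with the animal as a block; circles are estimates, bars 95% intervals, and filled circles have an adjusted p under 0.05. In PFM037+TNF against vehicle Ctsk, Ocstamp and Atp6v0d2 are filled on the lower side, and with TNF Dcstamp is filled on the higher and Tnfrsf11a on the lower side.

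With PFM037 already present, TNF called none of the members: in PFM037+TNF against PFM037, 0 of 9 passed with the animal in the model, where 20.4% of all genes did, and 0 of 9 passed without it, against 2.25% of all genes. With the animal 1 of 9 members, Nfatc1, had an unadjusted p under 0.05, against 34.0% of all genes, and DESeq2 and limma-voom called 0 in either form. The interaction of both agents, which asks whether one changes the effect of the other, was called for 0 of 9 members and 0% of all genes with or without the animal. Of the members, Dcstamp alone had an unadjusted interaction p under 0.05 with the animal in the model, as had 2.76% of all genes, and none had one without it. PFM037 against vehicle and PFM037+TNF against TNF had 0% of all genes called without the animal, and 0 members.

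The other genes of the pathway were taken from lists of textbook members. In RANK and ITAM signalling, the receptors, adaptors, kinases and NF-kB factors upstream of NFATc1, 2 of 33 tested genes rose and 1 fell with TNF without the animal term, and 10 rose and 3 fell with it. Of all genes 2.68% were called without the animal, and 19.4% with it, 1329 being higher and 1363 lower. The list median was a log2 change of 0.12 with the animal, beside -0.02 over all genes. Relb, the NF-kB subunit of the alternative pathway, rose to 76.6 ± 7.22 CPM with TNF, against 30.1 ± 10.0 CPM with vehicle (SD, n = 4 each, log2 1.35, adjusted p = 0.00217). Its partner Nfkb2 rose to 177 ± 24.1 CPM with TNF, against 80.6 ± 31.2 CPM with vehicle (log2 1.13, adjusted p = 0.0131). Trem2 fell to 139 ± 14.1 CPM with TNF, against 222 ± 29.6 CPM with vehicle (log2 -0.67, adjusted p = 0.00234). With PFM037+TNF Trem2 fell further, to 100.5 ± 8.52 CPM (log2 -1.14 against vehicle, adjusted p = 2.95e-05). The alternative NF-kB genes and an ITAM receptor gene thus moved in opposite directions in the same libraries.

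Genes that restrain osteoclast formation also moved both ways. With TNF 2 of 15 tested rose and 2 fell without the animal, and 5 rose and 5 fell with it, beside 2.68% and 19.4% of all genes called, with a median log2 change of 0.10. Tnfaip3, the ubiquitin-editing inhibitor of NF-kB, which is also on the list of direct TNF targets, rose to 414 ± 77.9 CPM with TNF, against 98.0 ± 16.4 CPM with vehicle (log2 2.08, adjusted p = 2.30e-05). Id1, which blocks basic helix-loop-helix proteins, was down to 40.2 ± 7.26 CPM with TNF, against 112 ± 24.9 CPM with vehicle (log2 -1.48, adjusted p = 0.000163). Restraints of different kinds thus fell and rose at once, while Nfatc1 itself did not pass with TMM scaling in any comparison. With PFM037+TNF against TNF, Nr4a1, a nuclear receptor of this list, fell (log2 -0.74, SE 0.14, adjusted p = 0.0234 with the animal).

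**Figure D5:**
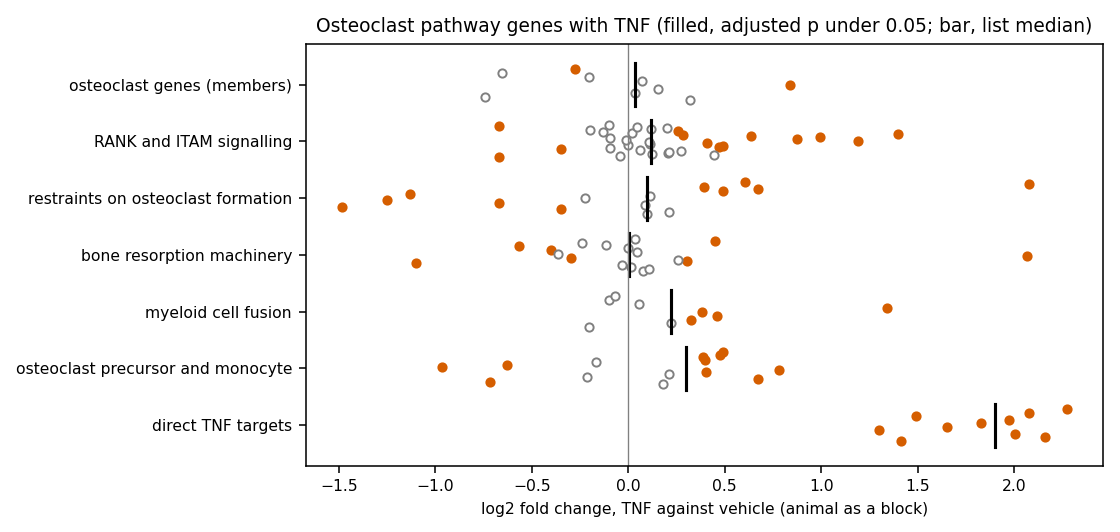
Log2 fold change with TNF against vehicle, the animal as a block (x axis), of each tested gene in 7 lists (y axis); each circle is 1 gene, filled where the adjusted p is under 0.05, and black bars are list medians. The median of the osteoclast genes is 0.03, while the 10 direct TNF targets lie to the right with a median of 1.90.

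In the resorption machinery, 0 of 18 tested genes rose and 1 fell with TNF without the animal, and 3 rose and 4 fell with it, beside 2.68% and 19.4% of all genes called. Ckb, the brain-type creatine kinase that supplies energy to resorbing osteoclasts, fell to 23.4 ± 3.24 CPM with TNF, against 49.9 ± 4.13 CPM with vehicle (log2 -1.09, SE 0.12, adjusted p = 0.000150). With PFM037+TNF Ckb was likewise lower than vehicle (log2 -1.06, adjusted p = 0.000291), as was Plekhm1, a vesicle-trafficking gene needed for resorption (log2 -0.46, adjusted p = 0.0400). Mmp9, the gelatinase of osteoclasts and also a neutrophil granule enzyme, rose with PFM037+TNF against TNF (log2 0.70, SE 0.13, adjusted p = 0.0234 with the animal), in the comparison in which Ctsk fell and Ltf and Ly6g rose. Whether neutrophil RNA had a part in the Mmp9 difference was not tested.

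In the list of myeloid cell fusion, 1 of 9 tested genes rose and 0 fell with TNF without the animal, and 4 rose and 0 fell with it, with a median of 0.22, beside 2.68% and 19.4% of all genes called. Myo10, an unconventional myosin of filopodia, rose to 34.1 ± 10.4 CPM with TNF, against 13.4 ± 1.95 CPM with vehicle (log2 1.35, SE 0.19, adjusted p = 0.000872). The tetraspanin gene Cd9 fell with PFM037+TNF against TNF (log2 -0.43, SE 0.08, adjusted p = 0.0234 with the animal), as did Ctsk. Against vehicle, 3 of the 9 rose and 3 fell with PFM037+TNF and the animal in the model, where 24.8% of all genes were called.

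Precursor and monocyte genes moved both ways. With TNF 1 of 14 rose and 0 fell without the animal, and 7 rose and 3 fell with it, with a median of 0.30, beside 2.68% and 19.4% of all genes called. Itgam rose to 2531 ± 64.6 CPM with TNF, against 1927 ± 238 CPM with vehicle (log2 0.39, SE 0.10, adjusted p = 0.0498). With PFM037+TNF against vehicle and the animal in the model, the Fc receptor gene Fcgr3 (log2 -0.65, adjusted p = 4.51e-05) and the chemokine receptor gene Ccr2 (log2 -0.61, adjusted p = 6.45e-05) fell. Ly6c2, which marks inflammatory monocytes, rose there (log2 0.51, adjusted p = 0.000688). PFM037 against vehicle called 0 genes in all 5 of these pathway lists, with and without the animal. Of all genes, 0.0794% were called there with the animal and 0% without it.

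The direct TNF targets changed by far more than the osteoclast genes. With TNF 9 of 10 rose without the animal and 10 of 10 with it, beside 2.68% and 19.4% of all genes called. Their medians were 1.85 and 1.90. Sod2, mitochondrial superoxide dismutase, rose to 503 ± 96.5 CPM with TNF, against 128 ± 16.2 CPM with vehicle (log2 1.98, SE 0.14, adjusted p = 4.13e-06). Nfkbia, the inhibitor of NF-kB that TNF induces, rose to 577 ± 120.4 CPM with TNF, against 180.5 ± 9.87 CPM with vehicle (log2 1.68, adjusted p = 7.23e-05). With PFM037 present TNF still raised 10 of 10 of these genes, where 20.4% of all genes were called with the animal. None of the members passed there. Adding PFM037 to TNF lowered 1 of the 10, Cxcl1, a neutrophil-attracting chemokine (log2 -0.63, SE 0.15, adjusted p = 0.0493 with the animal). Of all genes 1.36% were called in that comparison.

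Markers of other cells were measured because such cultures can hold them. With TNF against vehicle and the animal in the model, 5 of 8 neutrophil markers fell and 0 rose, where 19.4% of all genes were called, at sums of 6298 to 10152 CPM with TNF and 7344 to 15125 CPM with vehicle. Among 8 markers of mast cells, basophils and eosinophils 1 rose with TNF and 5 rose with PFM037+TNF against vehicle, where 24.8% of all genes were called. Their sums were 120.4 to 609 CPM with PFM037+TNF, 98.4 to 418 CPM with TNF and 114 to 348 CPM with vehicle, animals 1 and 2 being above animals 3 and 4 in each group, as for Dcstamp. Ear1, an eosinophil ribonuclease gene, was the only gene of any marker list called for PFM037 against vehicle (log2 0.86, SE 0.14, adjusted p = 0.0392). Of the dendritic cell markers 2 of 5 tested rose with TNF, among them the chemokine receptor gene Ccr7 (log2 1.93, adjusted p = 0.00745 without the animal). With TNF 1 of 7 tested erythroid and megakaryocyte markers and 1 of 6 lymphocyte markers fell, and of the stromal markers 0 of 2 tested were called in any comparison. Their part in the results for Tnfrsf11a and Dcstamp was not tested.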

How the data were processed

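The labels' protocols give RNA from spin columns, a stranded TruSeq mRNA kit and single reads from a NextSeq instrument. STAR 2.5.3a (an aligner), featureCounts (a counter), limma and mm10 (GRCm38) appear in the submitters' processing notes, and no source used here states the annotation release or the strand setting. The authors deposited raw whole-number counts of reads per gene, a column for each library. The group and the animal of each library were taken from the labels.

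Tests used edgeR 4.0.16 in R 4.3.3: a quasi-likelihood F-test after TMM scaling, on the 13856 genes that filterByExpr kept at a minimum count of 10 and a minimum total of 15. One model over all 16 libraries gave 5 comparisons between groups and the interaction, two-sided, with Benjamini-Hochberg adjustment within each over the genes tested and a threshold of 0.05. The main model held no animal term, and its alternative took the animal as a block. The pairing is taken from the labels, by which the same 4 animals stand in every group, and the blocked value stands beside calls it changed. Libraries of an animal deviated together (correlation 0.497 to 0.777). Libraries of different animals were not compared in this way, so the correlation does not by itself establish the pairing. Where a sentence says "with the animal", or gives a result that the blocked model alone called, its values are from that model. Intervals are 95% intervals of the model. No pair of libraries within a group agreed within sampling noise (lowest chi-square per degree of freedom 6.78).

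The members and lists were chosen with earlier results of these data known. Named by rule are all 10 members, the 3 genes with the smallest p among those called in each list and comparison (from the blocked model where the other called none; 1 of these is not reported here), and the 3 genes most like each member called with TNF or PFM037 alone, at a mean of at least 5 CPM. Csf1r, Runx2, Col1a1, Col1a2, Col3a1 and Bglap were named in addition, after their values were seen, as were the genes under other observations. Loci and exon lengths are from GENCODE on GRCm38, and the promoters are from RefSeq. Alternatives were other scaling and filters, DESeq2 1.42.0, voom in limma 3.58.1, only the groups compared, and single libraries or animals left out.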

Additional observations from a re-analysis of the deposited data

Results flagged for a closer look

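Of 40 groups of 4 libraries examined, 10 genes in 4 groups, 4 held a library far from the other 3. Chance gives about 1 in 20 for independent groups of normal values. The groups here share their animals, and the 4 were Atp6v0d2 in animal 1 and Car2 in animal 2, so their number cannot show an excess. Atp6v0d2 was at 4.89 CPM in TNF animal 1, with the other TNF libraries at 0.896 to 1.41 CPM. In vehicle animal 1 it was at 10.3 CPM, with the other vehicle libraries at 1.69 to 1.82 CPM. Car2 was at 20.9 CPM in PFM037+TNF animal 2, with the others at 11.9 to 12.7 CPM. In TNF animal 2 it was at 25.9 CPM, with the others at 10.2 to 12.3 CPM.

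For Tnfrsf11a the differences with PFM037 had opposite signs with and without TNF, and neither passed. PFM037+TNF lay above TNF in 4 of 4 animals (log2 0.13, SE 0.09, adjusted p = 0.537) and PFM037 below vehicle in 4 of 4 (log2 -0.07, SE 0.09, adjusted p = 0.897), by under 0.01 in animal 1 in both. The test of that difference, the interaction, gave 0.20 on the log2 scale with the animal in the model (SE 0.13, adjusted p = 1.00) and did not pass.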

How the results depend on the processing

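No setting called a member with a sign opposite to that in the main model. Of the members' values under alternatives, 1521 kept direction and side of the threshold, 56 newly passed it, all with the animal as a block, and 177 changed sign without a call. Library size in place of TMM moved the median of all genes by under 0.1 on the log2 scale. The calls on members rest on the pairing by animal and on few animals, and for Ocstamp, Dcstamp and Atp6v0d2 on few counts.

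With TNF against vehicle 0 members were called without the replicate block, 2 with it, 3 with it and library size alone, 2 with it and DESeq2 size factors, 3 with it and no filter, 2 with it in DESeq2 and 2 with it in limma-voom. All genes called there were 371 without the block, 641 by DESeq2, 110 from only the groups compared, and with the block, in the same order, 2692, 3212, 2668, 2867, 2736 and 2922. For PFM037 against vehicle the block called 2 members without a filter (Ctsk and Atp6v0d2) and 1 in DESeq2 (Ctsk), and all genes called were 11, 4, 11, 236, 74 and 11 with the block. For PFM037+TNF against TNF the block called 1, 1, 1, 3, 2 and 2 members, and 188, 204, 172, 653, 409 and 240 of all genes, beside 9 by DESeq2 without it. For PFM037+TNF against PFM037 the block with library size alone called 1 member, Nfatc1, and all genes called were 312 without the block, 583 by DESeq2, 181 from only the groups compared, and 2828, 3332, 2822, 2983, 2940 and 3021 with the block. For PFM037+TNF against vehicle the block called 3, 3, 3, 4 (Itgb3 added), 2 and 3 members, and all genes called were 365 without it, 223 without a filter, 783 by DESeq2, 133 from only the groups compared, and 3437, 3482, 3474, 3396, 3465 and 3557 with the block. For the interaction, the block without a filter called 34 genes and 0 members. The cause of these shifts was not tested.

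With single libraries left out of the model without the block, 0 members were called in any comparison. All genes called then were 206 to 401 with TNF, 0 with PFM037, 0 for PFM037+TNF against TNF, 163 to 310 for PFM037+TNF against PFM037 and 160 to 417 for PFM037+TNF against vehicle. With animal 1, 2, 3 or 4 left out of the blocked model, the members called were 0, 1, 1 and 1 with TNF and 1, 1, 3 and 2 for PFM037+TNF against vehicle, and 0 in the other comparisons. All genes called were 1581, 1685, 2294 and 1703 with TNF, 5, 1, 6 and 0 with PFM037, and 1, 60, 27 and 3 for PFM037+TNF against TNF. They were 2464, 1596, 2210 and 1434 for PFM037+TNF against PFM037, and 2950, 2045, 2868 and 2119 for PFM037+TNF against vehicle. Under 9 blocked alternatives, the TNF calls were made again in 6 for Tnfrsf11a and 7 for Dcstamp. Ctsk was called again in 5 against TNF and in 7 against vehicle, and Ocstamp in 5 and Atp6v0d2 in 8 against vehicle.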

Other observations

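Genes of late osteoclasts and of the ligand side of the pathway were close to undetected. Calcr, the calcitonin receptor of mature osteoclasts, had 0 to 1 counts per library, and Siglec15, a sialic acid receptor of the fusion stage, 0 to 2. Tnfsf11, which encodes RANK ligand, had 0 to 4 counts and its decoy receptor gene Tnfrsf11b 0 to 2. Ifnb1, the interferon that restrains osteoclast precursors, had 0 to 5. Together with Oscar, these genes could not show a difference at this depth, which does not show that they were absent.

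Mmp14, a membrane-bound collagenase that osteoclasts and macrophages share, was at 558 ± 153 CPM with PFM037+TNF, 589 ± 201 CPM with TNF, 168 ± 150.02 CPM with PFM037 and 197 ± 166 CPM with vehicle (SD, n = 4 each). It was higher with TNF than with vehicle with the animal in the model (log2 2.07, SE 0.39, adjusted p = 0.00133) and did not pass without it (log2 1.58, adjusted p = 0.375). It ran from 25.7 to 809 CPM over the 16 libraries.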
